A study of Mus musculus with 18 samples.

Results

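The proteasome is the large protease that cuts up proteins marked with ubiquitin. Its constitutive subunits were described here across mouse embryonic fibroblasts labelled Ago2+/+ or Ago2-/- that had been given an endoplasmic reticulum (ER) stressor or its solvent. Members were all loci of the deposited table that carry a gene symbol beginning with Psma to Psmg and a number, leaving out the interferon-inducible Psmb8, Psmb9 and Psmb10. This gave 46 symbols at 47 loci among 51499 loci. Of the 47, 44 had a mean of at least 1 FPKM (sequenced fragments per unit of transcript length and of library size) over the groups and were compared. All 44 had a mean of at least 10 FPKM, and 28 of at least 100 FPKM. The 3 loci below the limit were Psma8, listed at 0 in all 6 groups, Psmb11, with a mean of 0.0445 FPKM, and a second locus of Psmd5. Psma8 and Psmb11 are the core subunits known from testis and thymus.

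The series holds 18 libraries of bulk RNA, 3 in each of 6 groups. Cells of both genotype labels were treated with DMSO as solvent, with tunicamycin, an inhibitor of N-glycosylation, or with 500 nM thapsigargin, an inhibitor of the ER calcium pump. AGO2 is an Argonaute protein that carries small RNAs, and the Ago2-/- cells lack its gene by label. Titles of the Ago2+/+ libraries begin with DCR1, and the genotype labels of 4 libraries conflict with each other. How many clones or embryos the cells came from is not stated in the labels. The table gives 1 value per group, which the authors derived from 3 libraries, so no value below has an SD, and no test was made. The authors' own test columns were not used. Each difference is therefore a description of 2 group values.

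The values of the label checks went against the labels, and those of the stress checks did so in part. Ago2 (chr15:73095844-73184935, minus strand, GRCm38) stood at 22.1, 5.75 and 17.0 FPKM in Ago2+/+ DMSO, tunicamycin and thapsigargin, and at 5.61, 15.5 and 20.7 FPKM in those labelled Ago2-/- with the same treatments. It was thus lowest in Ago2+/+ tunicamycin and Ago2-/- DMSO. The Y-linked gene Ddx3y was at 23.3 FPKM in Ago2+/+ thapsigargin and 24.7 FPKM in Ago2-/- tunicamycin and listed at 0 in the other 4 groups. The locus of Xist, the RNA of the inactive X chromosome, was at 46.6 FPKM in Ago2+/+ DMSO and 33.5 FPKM in Ago2-/- thapsigargin and under 1 FPKM in the rest. Hspa5, the ER chaperone gene that stressors are known to induce, was highest in the group labelled Ago2-/- DMSO, at 7682 FPKM. The other stress checks, Ddit3 and Herpud1, were instead highest in Ago2-/- tunicamycin. Ddit3 was at 237, 282 and 345 FPKM in Ago2+/+ DMSO, tunicamycin and thapsigargin, and at 339, 349 and 253 FPKM in Ago2-/-. Herpud1 was at 293, 349 and 431 FPKM in Ago2+/+ and at 334, 492 and 207 FPKM in Ago2-/-. Both were thus above DMSO under either stressor in Ago2+/+, but below it under thapsigargin in Ago2-/-. Groups are hence called by their labels only, and every direction below rests on those labels. Of 10 fibroblast markers, 6 or 7 reached 1 FPKM in each group, with Vim between 952 and 2634 FPKM, whereas Thy1 was listed at 0 in all groups. Lum was at most 0.0138 FPKM and Dcn at most 1.06 FPKM. The summed level of the 10 lay between 2430 and 3630 FPKM. Much of it came from Vim and from the S100a4 locus (285 to 1967 FPKM), which also holds S100a3 and Gm42674. Single markers differed far more between groups than the sum: Col1a1 ran from 5.97 to 651 FPKM, Col1a2 from 23.7 to 577 FPKM and Pdgfrb from 0.540 to 17.9 FPKM. The part of these differences in the results below was not tested. Of 4 epithelial and 3 endothelial markers none reached 1 FPKM in any group, and of 3 blood markers 1 did, Cd68.

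The proteasome has a barrel-shaped core of stacked rings, with alpha subunits at both ends and beta subunits, 3 of them proteolytic, inside. A cap on the core holds a ring of ATPases, which unfold the substrate, and non-ATPase subunits, which bind and remove ubiquitin. Activators such as those encoded by Psme1 to Psme4 can take the place of the cap, Psmf1 encodes an inhibitor, and dedicated chaperones assist assembly. Loss of proteasome activity is known to raise transcription of the subunit genes together, through the ER-anchored factor encoded by Nfe2l1, and proteins extracted from the ER are degraded by the proteasome. Of the 44 members, 7 are alpha and 7 beta subunits of the core, 6 ATPases and 11 non-ATPase subunits of the cap, 5 activators, 1 inhibitor and 7 assembly chaperones.

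By class medians, core and cap members stood higher per length than activators, inhibitor and chaperones, although the activator Psme3 stood above some of them, such as Psma2 and Psmd13. The median over the 14 core members, taken on their means, was 177 FPKM, against 135 FPKM for the 17 cap members, 42.5 FPKM for the 5 activators and 34.4 FPKM for the 7 chaperones. Summed core FPKM ran from 2413 in Ago2-/- tunicamycin to 2855 in Ago2-/- DMSO, and summed cap FPKM from 2111 to 2485 in the same groups. The ratio of the 2 sums stayed between 1.10 and 1.15 over the 6 groups. The ratio of beta to alpha sums varied more, from 1.26 in Ago2-/- thapsigargin to 1.51 in Ago2-/- tunicamycin. Psmb6, Psma7 and Psmb4 had the highest mean levels among the members, and Psme2b, Psmd10 and Psmf1 the lowest of the 44.

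**Figure D1:**
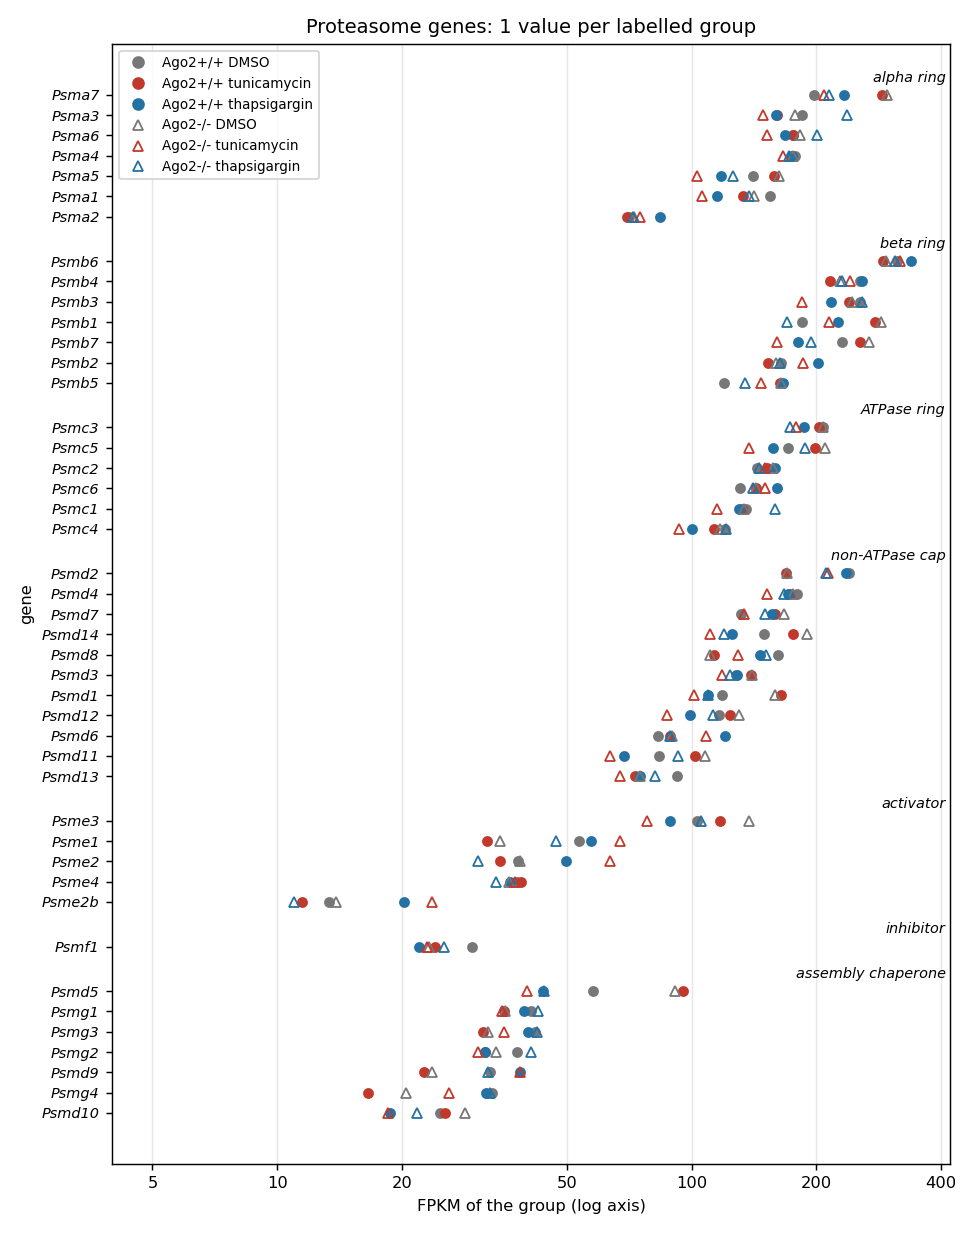
FPKM of the 44 members on a log axis, 1 point for each of the 6 labelled groups (filled circles, Ago2+/+; open triangles, Ago2-/-; grey, DMSO; red, tunicamycin; blue, thapsigargin). Core and cap subunits sit mostly above 100 FPKM with points close together, whereas Psmd5, Psme1, Psme2 and Psme2b spread over more than 2-fold.

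Members varied less between groups than loci in general. The coefficient of variation (CV, the SD over the 6 group values divided by their mean) had a median of 13.4% over the 44 members, against 22.4% over all 11929 loci past the same limit, 18.3% over the 7522 loci with at least 10 FPKM and 16.8% over those with at least 100 FPKM. On FPKM + 1, the highest group value was 2-fold or more above the lowest in 4 of 44 members (9.09%) and in 32.3% of all 11929 loci. That share was 22.8% of the loci with at least 10 FPKM and 21.6% of those with at least 100 FPKM. By class the median CV was 9.14% in the ATPase ring, 11.9% in the beta ring, 13.7% in the alpha ring, 15.1% in the non-ATPase cap, 17.3% in the chaperones and 27.9% in the activators. The steadiest members were Psma4 of the alpha ring, at 2.24%, the ATPase Psmc2, at 4.05%, and the activator Psme4, at 4.82%. Psma4 lay between 166 and 177 FPKM in all 6 groups. Of the 50-base words of its annotated transcript, 25.6% also occur in Gm6542, so its level may be joined with that gene.

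Ratios were taken as log2 of FPKM + 1, a scale on which the change of low genes is understated, and a member was counted where its ratio passed 1.5-fold (0.5850 on the log2 scale). In 7 labelled comparisons, each stressor against DMSO within a genotype label and Ago2-/- against Ago2+/+ at each treatment, 15 of 44 members passed 1.5-fold at least once, against 60.2% of all loci. These were 3 of 14 core members, 4 of 17 cap members, 4 of 5 activators, the near copies Psme2 and Psme2b among them, and 4 of 7 chaperones. Psmd5 passed in 5 comparisons and Psme1 and Psmg4 in 4. Comparisons that share a group are not independent of each other. In bulk RNA, fewer cells of a kind and less RNA per cell cannot be told apart.

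With the label Ago2+/+, few members differed between stressor and DMSO. Under tunicamycin 4 of 44 passed 1.5-fold, against 29.2% of all loci and 22.7% of loci averaging 10 FPKM or more. Psmd5 was higher by 0.72 on the log2 scale and the core gene Psmb1 by 0.59, just past the limit, while Psme1 was at -0.72 and Psmg4 at -0.95. Under thapsigargin 0 of 44 passed, against 27.5% of all loci and 21% of loci averaging 10 FPKM or more. The member ratios ran from -0.42 to 0.57. The median ratio of members was -0.03 under tunicamycin and -0.06 under thapsigargin, and that of all loci 0.01 in both.

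The label Ago2-/- under tunicamycin gave the most members past the limit among the 7 comparisons, and the most of all loci. There 13 of 44 passed against DMSO, 4 higher and 9 lower, with 36.9% of all loci past it (19.3% higher and 17.5% lower), or 31.1% of loci averaging 10 FPKM or more. The 4 higher were Psme1, Psme2, Psme2b and Psmd9, of which the first 3 encode activators and Psme2 and Psme2b share sequence, so that they may not be separate observations. The 9 lower were the core genes Psma5 and Psmb7, the cap genes Psmc5, Psmd1, Psmd11 and Psmd14, the activator Psme3 and the chaperones Psmd5 and Psmd10. Of the 31 core and cap members, 23 had a ratio below 0 and 8 above it, with a median of -0.23, whereas the median of all loci was 0.00. Under thapsigargin 4 members passed, against 31.2% of all loci and 25.1% of loci averaging 10 FPKM or more. Psmg4 was higher by 0.65, and Psmb1, Psmd14 and Psmd5 stood at -0.75, -0.66 and -1.03.

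Between genotype labels the count of members past the limit was highest at tunicamycin, as was that of all loci. At DMSO 4 of 44 passed 1.5-fold, against 29.4% of all loci and 23% of loci averaging 10 FPKM or more. The median member ratio of Ago2-/- over Ago2+/+ was 0.01. At tunicamycin 11 of 44 passed, against 35.8%, with 5 higher in Ago2-/- (Psme1, Psme2, Psme2b, Psmd9 and Psmg4, with 18.7% of all loci) and 6 lower (Psma5, Psmb7, Psmd1, Psmd11, Psmd14 and Psmd5, with 17.1% of all loci). Of loci averaging 10 FPKM or more, as all members do, 29.9% passed. Core and cap ratios were below 0 in 23 of 31, with 5993 of all 11929 loci below 0. This is not separate from the same count for Ago2-/- tunicamycin over DMSO. The group Ago2-/- tunicamycin is in both comparisons, and the groups it was set against were nearly alike, with 1.94% of all loci past 1.5-fold. At thapsigargin 2 passed, against 28.3% of all loci and 22.6% of loci averaging 10 FPKM or more. Both were lower (15.9% of all loci): Psme2 at -0.69 and Psme2b at -0.82. Members past 1.5-fold with opposite signs in the 2 genotype labels were 2 of 44 under tunicamycin, Psme1 and Psmd5, against 15.6% of all loci, and 0 under thapsigargin, against 10.1%.

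**Figure D2:**
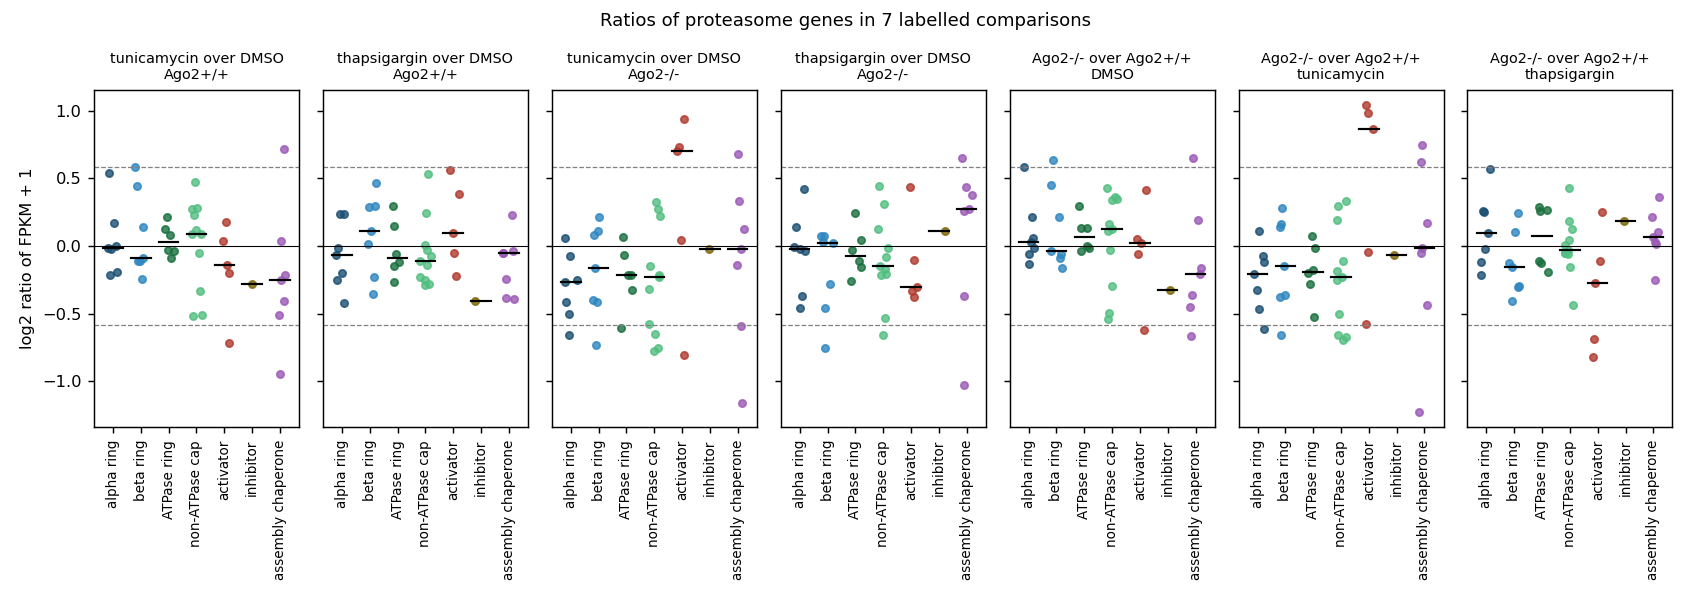
Log2 ratios of FPKM + 1 of the 44 members in the 7 labelled comparisons, 1 point per gene, by subunit class (black bars, class medians; dashed lines, 1.5-fold). Points of all classes lie mostly between the dashed lines, and in both comparisons of the group labelled Ago2-/- tunicamycin with Ago2-/- DMSO or Ago2+/+ tunicamycin 3 activators lie above the upper line, among them the near copies Psme2 and Psme2b.

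The group labelled Ago2-/- tunicamycin was where members were most often lowest. Of the 44, 22 (50%) had their lowest of 6 values there, against 19.6% of all loci, and so had 17 of the 31 core and cap members. The count rests on the same group values as the ratios above and is not separate from them. Ago2+/+ thapsigargin, from which it differed past 1.5-fold in 2.36% of all loci, was lowest for 1 member (2.27%, against 14% of all loci). It was highest for 8 (18.2%, against 15.9%), all of the core or cap. The highest value fell in Ago2-/- DMSO for 12 members (27.3%, against 17.3% of all loci), 10 of them of the core or cap. No core or cap member was highest in Ago2-/- tunicamycin, where 4 of the 44 members (9.09%) and 19.3% of all loci were.

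Among the proteolytic subunits, Psmb6 was steady, Psmb7 varied most and Psmb5 differed in order. Psmb6, for cutting after acidic residues, was at 313, 289 and 339 FPKM in Ago2+/+ DMSO, tunicamycin and thapsigargin, and at 294, 318 and 309.7 FPKM in Ago2-/- with the same treatments. Psmb7, for cutting after basic residues, was at 231, 254 and 180.4 FPKM in Ago2+/+ and at 268, 161 and 194 FPKM in Ago2-/-, highest in Ago2-/- DMSO and lowest in Ago2-/- tunicamycin. Psmb5, for cutting after hydrophobic residues, was at 119.8, 163 and 166 FPKM in Ago2+/+ and at 165, 147 and 135 FPKM in Ago2-/-, lowest in Ago2+/+ DMSO. Its ratio over DMSO in Ago2+/+ was 0.44 for tunicamycin and 0.47 for thapsigargin, short of 1.5-fold. The annotated transcript of Psmb5 shares 57.1% of its 50-base words with other genes, so its level may be split or joined with theirs.

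Psmb5 and Psmb6 are shown by promoter because they carry the letters TGACNNNGC (N, any base), the core of the antioxidant response element that NRF1 and NRF2, the products of Nfe2l1 and Nfe2l2, bind with small MAF partners. Sequences are from RefSeq (GRCm38.p6), 250 bases before to 50 after the start, and the match is in capitals. That of Psmb5 is chr14:54617946-54618245 on the minus strand, with the match beginning at -47 from the start, and that of Psmb6 is chr11:70525107-70525406 on the plus strand, with the match at -9.
Psmb5: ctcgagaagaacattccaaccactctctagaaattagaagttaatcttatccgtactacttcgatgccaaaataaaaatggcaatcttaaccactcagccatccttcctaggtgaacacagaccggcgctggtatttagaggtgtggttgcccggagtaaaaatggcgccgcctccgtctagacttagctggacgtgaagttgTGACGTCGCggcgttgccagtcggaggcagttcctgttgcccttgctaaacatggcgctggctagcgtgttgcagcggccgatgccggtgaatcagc
Psmb6: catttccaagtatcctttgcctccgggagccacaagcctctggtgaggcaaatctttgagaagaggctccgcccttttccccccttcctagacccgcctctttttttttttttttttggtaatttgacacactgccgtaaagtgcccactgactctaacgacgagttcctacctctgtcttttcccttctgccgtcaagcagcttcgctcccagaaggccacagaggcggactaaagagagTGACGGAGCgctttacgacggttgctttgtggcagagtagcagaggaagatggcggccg
Promoters were found for 38 of the 46 symbols. Searched on both strands, TGACNNNGC was present in 6 of them (15.8%), against 12.4% of all 32851 promoters of the table, and CCAAT, the letters bound by NF-Y, in 13 (34.2%), against 37.4%. The 6 with TGACNNNGC were Psmb5, Psmb6, Psmc6, Psmd9, Psmd12 and Psme4, of which only Psmd9 is among the 15 members past 1.5-fold. A match describes the letters of this window and is no measure of binding.

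The other core members were mostly narrow in range. Psmb1, a structural beta subunit, was at 184, 277 and 225 FPKM in Ago2+/+ DMSO, tunicamycin and thapsigargin and at 287, 215 and 169.6 FPKM in Ago2-/-, so that both groups with the lowest Ago2 had its highest values. Psma7, the alpha subunit with the highest mean, was also highest in those groups, without passing 1.5-fold. It was at 289 FPKM in Ago2+/+ tunicamycin and 296 FPKM in Ago2-/- DMSO against 198 to 233 FPKM in the other 4. Its lowest value was in Ago2+/+ DMSO, whereas that of Psmb1 was in Ago2-/- thapsigargin. Psma5 was at 141, 158 and 118 FPKM in Ago2+/+ and at 163, 103 and 126 FPKM in Ago2-/-, lowest in Ago2-/- tunicamycin. Of the 50-base words of Psma5, 54.5% occur in other genes. Psmb4 lay between 216 and 258 FPKM.

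In the cap, the ATPase ring was the steadiest class and the deubiquitinase Psmd14 among the more variable members. Of the 6 ATPases only Psmc5 passed 1.5-fold, once, at 171, 199 and 158 FPKM in Ago2+/+ and at 210.1, 138 and 188 FPKM in Ago2-/- (ratio of tunicamycin over DMSO in Ago2-/-, -0.61). Psmc3 had the highest mean of the ring and lay between 173 and 208 FPKM. Psmd14, a subunit that removes ubiquitin chains from the substrate, was at 149, 175 and 125 FPKM in Ago2+/+ and at 190.0, 111 and 120.1 FPKM in Ago2-/-. Its values were highest in Ago2-/- DMSO and lowest in Ago2-/- tunicamycin, as were those of Psmd11, at 108 and 63.5 FPKM. Psmd1, a scaffold of the cap, was at 118, 164 and 109 FPKM in Ago2+/+ and at 159, 101 and 109.7 FPKM in Ago2-/-, from a locus that also holds Armc9 and Gm21972. The ubiquitin receptor Psmd4 was steady, between 152 and 179 FPKM, and Psmd2, the scaffold that docks ubiquitin shuttles, was lowest in Ago2+/+ tunicamycin and Ago2-/- DMSO, at 240.4, 169 and 236 FPKM in Ago2+/+ and at 170.0, 213 and 211 FPKM in Ago2-/-. Of the 50-base words of Psmd2, 26.4% occur in other genes.

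The activators differed most among the classes and not in one direction. Psme1 and Psme2 together encode the activator that interferon is known to induce, Psme3 encodes the nuclear one, and Psme4 the large single-chain one. Psme1 was at 53.5, 32.1 and 57.3 FPKM in Ago2+/+ DMSO, tunicamycin and thapsigargin and at 34.5, 67.1 and 47.1 FPKM in Ago2-/-. It was lowest in Ago2+/+ tunicamycin and Ago2-/- DMSO and highest in Ago2-/- tunicamycin. Psme3 stood in a nearly opposite order, at 103, 117 and 88.5 FPKM in Ago2+/+ and at 138, 78.2 and 106 FPKM in Ago2-/-, highest in Ago2-/- DMSO and lowest in Ago2-/- tunicamycin. The ratio of Psme3 to Psme1 FPKM thus ran from 1.17 in Ago2-/- tunicamycin to 3.99 in Ago2-/- DMSO, and was 1.93, 3.65, 1.55 and 2.24 in Ago2+/+ DMSO, tunicamycin, thapsigargin and Ago2-/- thapsigargin.

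Psme2 was at 38.0, 34.4 and 49.8 FPKM in Ago2+/+ and at 38.7, 63.4 and 30.5 FPKM in Ago2-/-, and was highest, as was Psme1, in Ago2-/- tunicamycin. Its near copy Psme2b was at 13.3, 11.5 and 20.2 FPKM in Ago2+/+ and at 13.9, 23.7 and 11.0 FPKM in Ago2-/-, in the same order of groups. The locus of Psme2b also holds the gene 9930111J21Rik1, so its value is a joint one. Psme2 shares 59.3% of its words with Psme2b, and Psme2b 68.7% with Psme2, so both values are uncertain and cannot be counted as separate observations. Psme4 lay between 33.7 and 38.8 FPKM in all 6 groups.

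The promoters of Psme1 (chr14:55578244-55578543, plus strand) and Psme3 (chr11:101315963-101316262, plus strand) are shown, from the same source and window, since these activators differed in opposite directions. Neither holds TGACNNNGC, and that of Psme3 holds CCAAT. They are in lower case throughout.
Psme1: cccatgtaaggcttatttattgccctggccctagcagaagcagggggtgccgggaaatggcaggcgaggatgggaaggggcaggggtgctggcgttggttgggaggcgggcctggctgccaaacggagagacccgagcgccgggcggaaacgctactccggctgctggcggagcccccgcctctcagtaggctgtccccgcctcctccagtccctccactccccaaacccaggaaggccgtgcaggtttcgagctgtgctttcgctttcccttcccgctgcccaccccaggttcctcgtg
Psme3: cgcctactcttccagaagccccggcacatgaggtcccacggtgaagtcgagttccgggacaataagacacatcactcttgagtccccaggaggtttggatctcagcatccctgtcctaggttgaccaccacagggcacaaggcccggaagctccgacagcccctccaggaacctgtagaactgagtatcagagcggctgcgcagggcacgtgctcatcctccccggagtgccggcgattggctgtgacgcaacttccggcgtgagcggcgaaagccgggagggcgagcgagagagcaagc

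**Figure D3:**
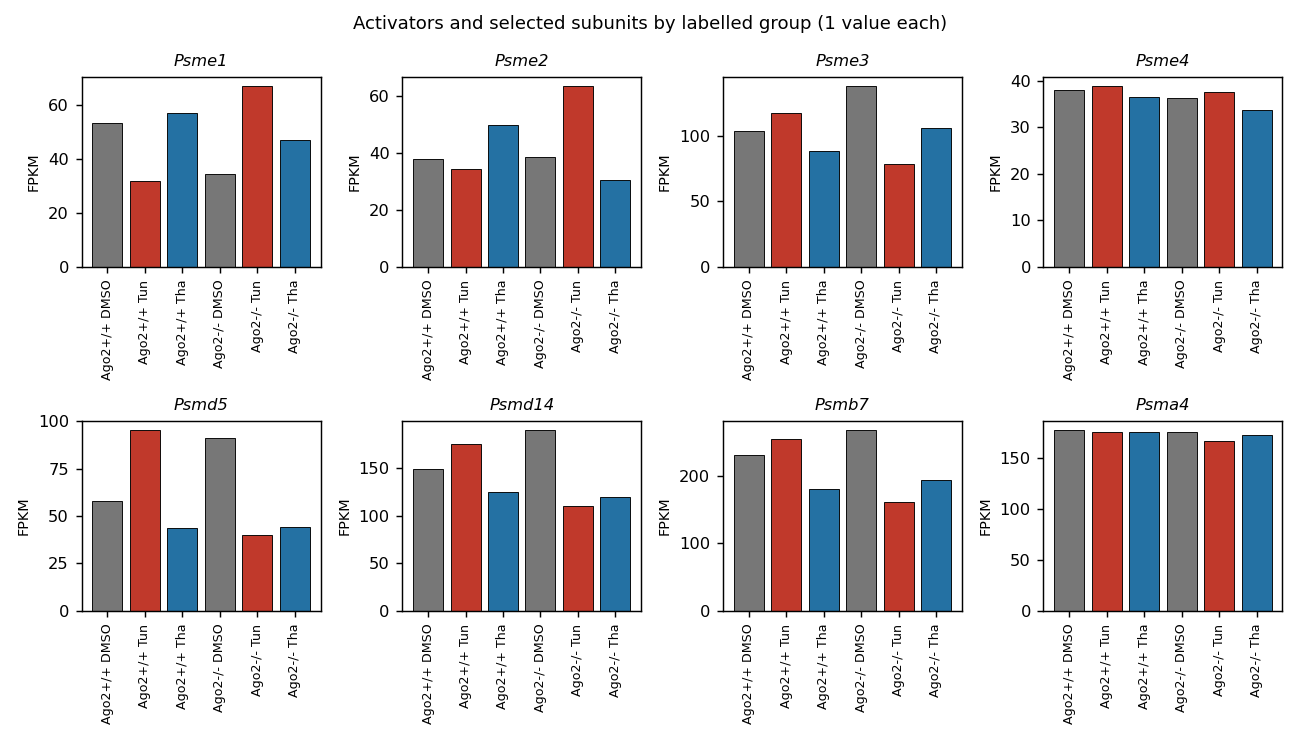
FPKM of 4 activators and of Psmd5, Psmd14, Psmb7 and Psma4 in the 6 labelled groups, 1 bar per group value with no error bar (grey, DMSO; red, tunicamycin; blue, thapsigargin). Psme1 and Psme3 order the groups nearly oppositely, and Psma4 and Psme4 are close to level.

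Among the 7 assembly chaperones, Psmd5 had the widest range of all 44 members. Psmd5, which encodes a chaperone of the ATPase ring and lies at chr2:34849734-34874968 (GRCm38), was at 57.7, 95.4 and 43.7 FPKM in Ago2+/+ and at 91.2, 40.1 and 44.1 FPKM in Ago2-/-. Ago2+/+ tunicamycin and Ago2-/- DMSO were apart from the other 4 groups, and the CV was 40.2%. Psmd9, another chaperone of the same ring, stood the other way, at 32.7, 22.6 and 38.6 FPKM in Ago2+/+ and at 23.7, 38.6 and 32.3 FPKM in Ago2-/-. Psmg4, one of the chaperones of the core, was likewise lowest in those groups, at 32.9, 16.6 and 32.0 FPKM in Ago2+/+ and at 20.4, 26.0 and 32.7 FPKM in Ago2-/-. Psmd10, the third ATPase ring chaperone, was at 24.7, 25.4 and 18.7 FPKM in Ago2+/+ and at 28.4, 18.5 and 21.8 FPKM in Ago2-/-. Psmg1, Psmg2 and Psmg3 did not pass 1.5-fold in any of the 7 comparisons, and the locus of Psmg3 also holds Gm26938 and Tmem184a. The inhibitor Psmf1 lay between 22.05 and 29.5 FPKM.

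All 15 pairs of groups were also set side by side. In 4 pairs 0 of 44 members passed 1.5-fold. Of these, 3 cross both genotype label and treatment: Ago2+/+ tunicamycin with Ago2-/- DMSO, where 1.94% of all loci passed, Ago2+/+ thapsigargin with Ago2-/- tunicamycin, with 2.36%, and Ago2+/+ DMSO with Ago2-/- thapsigargin, with 5.62%. The fourth was Ago2+/+ DMSO with Ago2+/+ thapsigargin, with 27.5%. The groups of a crossed pair are those that were alike in Ddx3y and in Xist. In the nearest pair, Ago2+/+ tunicamycin and Ago2-/- DMSO, the median absolute log2 ratio of members was 0.05 and the largest 0.28, for Psmg4, with a median of 0.08 over all loci. The median was 0.13 for members and 0.15 for all loci between Ago2+/+ DMSO and Ago2-/- thapsigargin, and 0.15 against 0.11 between Ago2+/+ thapsigargin and Ago2-/- tunicamycin, where members differed more than loci in general. Ago2+/+ tunicamycin against thapsigargin of the same label had 5 members past the limit (34.4% of all loci), and Ago2+/+ thapsigargin against Ago2-/- DMSO 7 (35.1%). Ago2+/+ tunicamycin against Ago2-/- thapsigargin had 3 (30.3%), Ago2-/- tunicamycin against thapsigargin of its label 3 (29.6%), and Ago2+/+ DMSO against Ago2-/- tunicamycin 2 (28.2%). Psmd5 had the largest absolute ratio of the members in 7 of the 15 pairs.

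**Figure D4:**
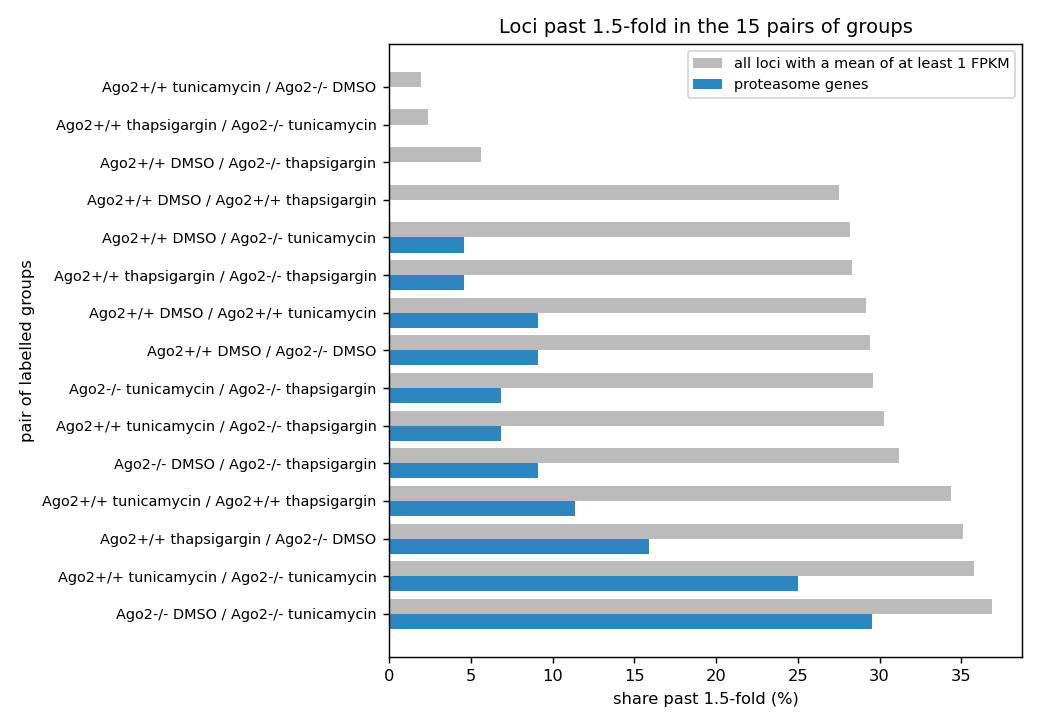
Share of loci past 1.5-fold (x axis, %) in each of the 15 pairs of labelled groups, for all 11929 loci (grey) and for the 44 members (blue), ordered by the grey bars. The 3 top pairs hold between 1.94% and 5.62% of all loci, and the members' share is below that of all loci in every pair.

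Genes that work with the proteasome were taken from a list of 28 assembly, cap, transcription, ubiquitin and shuttling genes, of which 27 were found. Between 2 and 4 of the 27 passed 1.5-fold in each comparison, against 27.5% to 36.9% of all loci, and 10 in at least 1 of 7, against 60.2%. Nfe2l1, which encodes the factor known to control subunit genes, was at 111, 153 and 124 FPKM in Ago2+/+ and at 151, 138 and 119 FPKM in Ago2-/- and did not pass. Nfe2l2, its relative of the oxidative stress response, was at 43.3, 87.0 and 37.2 FPKM in Ago2+/+ and at 97.5, 36.8 and 44.8 FPKM in Ago2-/-, high in the same groups as Psmd5. Ngly1 and Ddi2 encode enzymes that process the Nfe2l1 product. Ngly1 was at 9.85, 5.74 and 10.2 FPKM in Ago2+/+ and at 7.45, 12.5 and 10.5 FPKM in Ago2-/-. Ddi2, from a locus shared with Rsc1a1, lay between 25.3 and 38.7 FPKM.

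Of the ubiquitin genes, Ubb was at 114, 139 and 177 FPKM in Ago2+/+ and at 149, 173 and 118 FPKM in Ago2-/-, highest in Ago2+/+ thapsigargin and Ago2-/- tunicamycin, and Rps27a, a fusion of ubiquitin with a ribosomal protein, lay between 347 and 734 FPKM. Uba6, an activating enzyme, lay between 15.7 and 25.7 FPKM, and Sem1, a small cap protein, between 46.1 and 83.3 FPKM. For extraction and shuttling, Vcp lay between 142 and 245 FPKM, its cofactor Ufd1 between 37.2 and 59.7 FPKM, and Zfand5 between 23.7 and 40.2 FPKM.

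The immunoproteasome genes left out by the rule were low apart from Psmb10. Psmb8 was at 0.260, 0.0187 and 1.69 FPKM in Ago2+/+ and at 0.00538, 3.10 and 0.152 FPKM in Ago2-/-, highest in the 2 groups with Ddx3y. Psmb9 stayed under 1 FPKM in all 6 groups. It was at 0.367, 0.0227 and 0.390 FPKM in Ago2+/+ and at 0.00921, 0.770 and 0.626 FPKM in Ago2-/-. Psmb10 was at 34.9, 30.5 and 24.6 FPKM in Ago2+/+ and at 32.1, 25.2 and 34.5 FPKM in Ago2-/-. Psme1 and Psme2, known as partners of these genes under interferon, were highest in the same 2 groups as Psmb8, whereas Psmb10 was lowest in them. Psmb9 was instead highest in Ago2-/- tunicamycin and Ago2-/- thapsigargin.

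**Figure D5:**
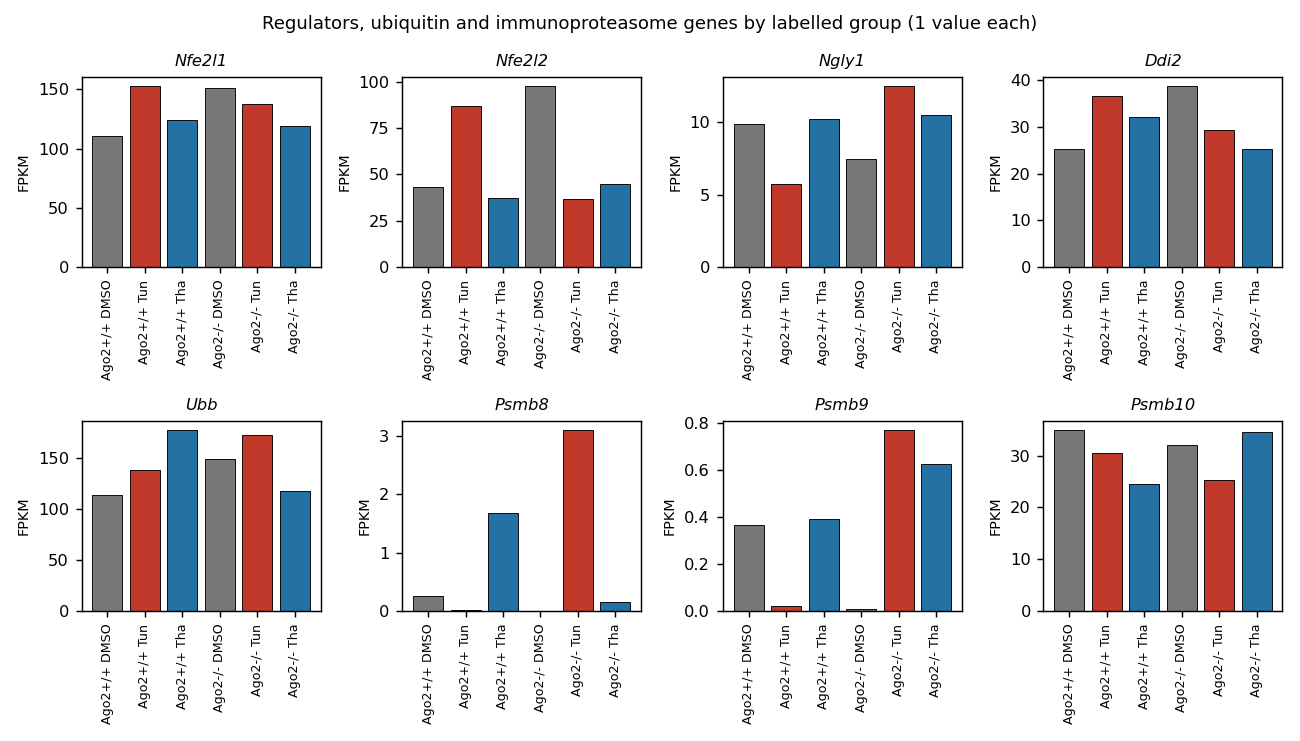
FPKM of 4 transcription-related genes, the ubiquitin gene Ubb and the 3 immunoproteasome genes in the 6 labelled groups, 1 bar per group value with no error bar (grey, DMSO; red, tunicamycin; blue, thapsigargin). Nfe2l2 is highest in Ago2+/+ tunicamycin and Ago2-/- DMSO, and Psmb8 in Ago2+/+ thapsigargin and Ago2-/- tunicamycin.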

How the data were processed

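RNA of 18 libraries, 3 per group, was measured. Per the labels and the methods of the study, the authors checked reads with FastQC 0.11.7, aligned them with HISAT2 2.1.0 to GRCm38, assembled transcripts with StringTie 1.3.4d and quantified loci with Cuffdiff 2.2.1. The deposited FPKM is 1 value per group made by the authors, listed in 15 pairs of groups for 51499 loci. The table also holds the authors' fold changes, test statistics, p and q values and calls, none of which was used. Depth is unknown: ratios of low values showed no steps of whole reads (the most frequent 1% bin held at most 2.65% of them). Neither labels nor methods state strandedness.

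Log2 ratios of FPKM + 1 were computed with Python 3.11.15, pandas 2.3.3 and numpy 2.4.6 for loci whose mean over groups reached 1 FPKM. The code was checked on copies of the locus means multiplied by set folds, without noise. That check covers the arithmetic and not the results. A fold of 1.5 was counted. Named were members past it in any of the 7 comparisons, the 3 highest and 3 lowest by mean, the highest of each class, proteolytic and ubiquitin-handling subunits, activators and the inhibitor, and list genes past it with Nfe2l1. One item of the list is not reported here. Words of 50 bases were compared between annotated transcripts (GENCODE, GRCm38). Members and lists were chosen with earlier results of these data known. Other pseudocounts, filters and folds were tried, and leaving out replicates was not possible.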

Additional observations from a re-analysis of the deposited data

Results flagged for a closer look

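In 4 genes the log2 ratio of tunicamycin over DMSO passed 1.5-fold with opposite signs in the 2 genotype labels. The difference of the ratios was not tested, since each group has 1 value. Among the members, Psme1 under tunicamycin was at -0.72 in Ago2+/+ and 0.94 in Ago2-/-, a difference (Ago2-/- minus Ago2+/+) of 1.66. Psmd5 was at 0.72 and -1.16, a difference of -1.88. Among the other genes of the pathway, Nfe2l2 under tunicamycin was at 0.99 and -1.38, a difference of -2.37, and Ngly1 at -0.69 and 0.67, a difference of 1.36. Over all loci, 15.6% had such opposite ratios under tunicamycin and 10.1% under thapsigargin. In these 4 genes both values of each of the 3 pairs of groups that cross label and treatment differed by less than 1.5-fold, and the part of the conflicting labels in the differences was not tested.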

How the results depend on the processing

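No paired analysis was possible because the table holds 1 value per group, and for the same reason no replicate could be left out. Of 77 alternative counts of members, 59 stayed within 1.5 times the value given, and of 504 alternative medians, 492 moved by less than 0.1 on the log2 scale. All 441 alternative values of single genes kept their sign and 438 their side of 1.5-fold. The 3 others were Psme2b for Ago2+/+ thapsigargin over DMSO (0.57), at 0.60 with a pseudocount of 0.1 FPKM and with none, and Psmb1 for Ago2+/+ tunicamycin over DMSO (0.59), at 0.58 when centred. A fold of 2 left 0 and 0 members in Ago2+/+ under tunicamycin and thapsigargin, 1 and 1 in Ago2-/-, and 0, 2 and 0 between genotype labels at DMSO, tunicamycin and thapsigargin, with 12.9% to 17.9% of all loci past it. A limit of 25% higher or the inverse gave 12, 9, 21, 16, 16, 20 and 7 in the same order, with 51.8%, 50.7%, 60.9%, 54.6%, 52.4%, 60.4% and 50.5% of all loci. With a pseudocount of 0.1 FPKM or none, 1 member passed in Ago2+/+ under thapsigargin. For Ago2-/- over Ago2+/+ at thapsigargin, the count of 2 fell to 1 over loci with 1 annotated gene or without Psme2b, and to 0 without the 5 members that share over 50% of their words. The last 2 of these alternatives were chosen after seeing the data. The activator median was unstable, because members of opposite direction stand on both sides of it. It was 0.70 for Ago2-/- tunicamycin over DMSO and 0.86 for Ago2-/- over Ago2+/+ at tunicamycin, and became 0.37 and 0.41 over loci with 1 gene or without Psme2b. Without the sharing members it was 0.0442 and -0.0475, the latter a reversal, and 0.0335, -0.0514, -0.11 and -0.11 for Ago2+/+ tunicamycin and thapsigargin, Ago2-/- thapsigargin and genotype at thapsigargin, from -0.14, 0.10, -0.31 and -0.28, so that the first 2 of these also turned. The beta ring medians turned as well, from -0.16 to 0.0813 for Ago2-/- tunicamycin over DMSO and from -0.15 to 0.14 for Ago2-/- over Ago2+/+ at tunicamycin. Centring on the median of all loci shifted ratios by at most 0.03.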
